A study of Mus musculus with 59 samples.

Results

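The genes described here are 46 components of the machinery that copies DNA, followed over bone marrow, spleen and liver of mice given baclofen. A probe set of the array was taken as a member when the platform annotation gives it exactly 1 gene symbol and that symbol is on the list. This left 97 of 45101 probe sets and 45 of the 46 genes, and Chaf1a was not analysed here. Where a gene has several probe sets, the brightest in a tissue stands for it. The arrays measure RNA from B6C3F1 mice, a hybrid strain. Baclofen, an agonist of the GABA-B receptor used as a muscle relaxant, was compared with its vehicle of 0.5% methylcellulose. Mice had either 1 dose or 5 daily doses and were killed 2 hours after the last one, and the labels used here give no dose, route or age.

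Bone marrow came from the right humerus, liver from the left lateral lobe and spleen from a cross-section. In bone marrow and in spleen there were 4 baclofen and 4 vehicle arrays after 1 day, and 8 baclofen and 4 vehicle arrays after 5 days. In liver there were 4 baclofen and 3 vehicle arrays after 1 day, and 8 baclofen and 4 vehicle arrays after 5 days. The labels number the replicates without saying that each is a separate animal, so the p-values measure the spread between these samples. The values are intensities summarised by robust multi-array averaging (RMA), used here on the log2 scale.

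A cell copies its genome once per division, in S phase. Before S phase the origin recognition complex (Orc1 and Orc6 here), Cdc6 and Cdt1 load the Mcm2 to Mcm7 helicase onto DNA, a step called licensing. Mcm10, Cdc45 and the GINS subunits turn that helicase on. Primase and polymerase alpha start new strands, polymerases epsilon and delta extend them on the sliding clamp Pcna, which the Rfc complex loads, and Rpa coats the exposed single strands. Fen1 and Lig1 trim and join the pieces, while Tk1, Tyms, Dut and ribonucleotide reductase (Rrm1 and Rrm2) provide the nucleotides. E2f1 and cyclin E drive the entry into S phase, and many of these genes are known targets of E2F factors. Bone marrow is the main site of blood cell formation in the adult mouse, the mouse spleen also holds dividing red cell precursors, and adult liver cells seldom divide.

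Some libraries and labels stand apart and bear on the results. The mean of 12 hepatocyte genes reached 9.69 log2 units in a baclofen spleen of 5 days and 9.86 in a vehicle spleen of 5 days, against a lowest value of 5.09 in baclofen spleens of that day. The mean of 10 skeletal muscle genes reached 9.93 in baclofen marrow replicate 3 of 1 day, against at most 7.59 in vehicle marrows of that day. The 4 libraries concerned are that marrow, vehicle spleens 1 and 3 and baclofen spleen 5 of the 5-day groups, and counts without them are given beside the results they move. The title and the source field disagree on the treatment of 5 of the 7 livers of 1 day, and the titles were followed here. Array medians lay between 72.6 and 76.1 intensity units in bone marrow, 74.3 and 77.6 in spleen, and 34.7 and 36.8 in liver.

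These array medians show that the tissues appear to have been normalized apart, so tissue levels are a description with no test. As deposited, 44 of the 45 genes had their highest mean among the vehicle groups in bone marrow, and 44 had their lowest in liver. After quantile normalization over all arrays together these counts were 41 and 43. Taking 1 probe set for all tissues, the median gene stood 0.78 log2 units higher in vehicle marrow than in vehicle spleen, and 3.01 higher in vehicle spleen than in vehicle liver. Pcna, the sliding clamp, averaged 13.56 ± 0.12 log2 units in vehicle marrow (SD, n = 8), 12.88 ± 0.42 in vehicle spleen (SD, n = 8) and 9.55 ± 0.09 in vehicle liver (SD, n = 7). Over all arrays of a tissue, the ranges in marrow and spleen overlapped for 32 of the 45 genes, and spleen lay wholly above liver for 41. As deposited, 44 of the 45 genes therefore stood in the order marrow, spleen, liver in vehicle means. The exception was Mcm10, with vehicle means of 11.23 log2 units in liver, 9.54 in marrow and 8.64 in spleen. In vehicle means marrow exceeded spleen by more than the larger of the vehicle SDs for 44 of the 45 genes as deposited. After quantile normalization over all arrays this held for 24. In liver 12 genes were too dim to be tested, among them Cdc6, Mcm4 and Uhrf1, and Tyms was too dim in spleen.

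The tissues also differed in how much these genes varied between arrays of 1 group. The median pooled SD of the genes was 0.11 log2 units in marrow, where all tested genes had 0.12. In liver it was 0.16, where all tested genes had 0.13, and Tk1 varied most at 0.50. In spleen it was 0.39, against 0.14 for all tested genes, and it ran to 0.81 for Cdc6 and down to 0.11 for Pold1, the catalytic subunit of polymerase delta. The mean over the 45 genes lay between 8.82 and 10.17 log2 units in the 4 vehicle spleens of 1 day alone, a wider range than all marrow arrays covered.

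**Figure D1:**
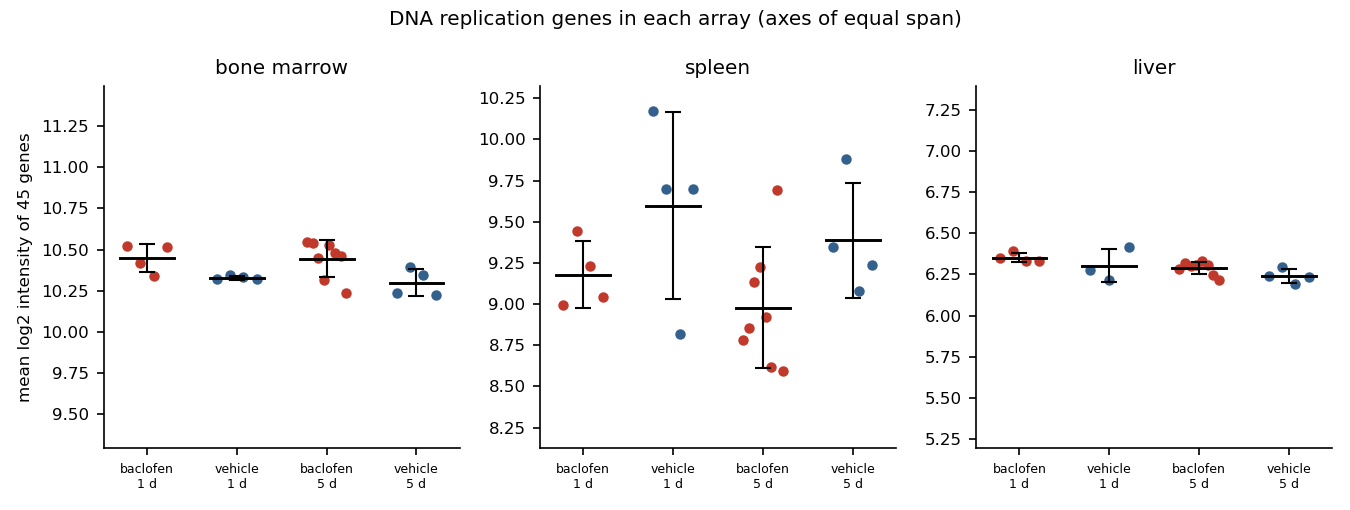
Mean log2 intensity of the 45 replication genes in each array (y axis; span equal in the 3 panels), by treatment and day (x axis); points are arrays, bars group means and whiskers SD. The spleens spread most, and in marrow the 4 vehicle arrays of 1 day lie between 10.32 and 10.34.

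With all arrays in the fit, bone marrow had the most calls, and every call there was a rise with baclofen. After 1 day 3 of 45 genes rose, against 3.11% of all genes, and after 5 days 9 of 45 rose, against 6.15%, by 1.16 to 1.28 fold. With array weights marrow had 14 calls at 1 day and spleen 23, and without vehicle spleen 3 of 1 day spleen had 25. The shares of all genes called under these other settings are not given here, so those counts have no background beside them. The genes that rose stand in most steps of the process: licensing (Cdt1, Cdc6, Orc1 and Mcm7), DNA synthesis (Pole), strand coating and joining (Rpa2 and Lig1), nucleotide supply (Tk1), chromatin assembly (Chaf1b) and S phase entry (E2f1). No gene of the helicase activation group or of the clamp and its loader passed in marrow at either time. In bulk tissue, more cells of a replicating type and more RNA per cell cannot be told apart.

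Promoter sequences are shown for 4 of the genes that rose in marrow, because they differ in whether they carry the motif of E2F factors. RefSeq (build GRCm38.p6) gives a window from 250 bases before to 50 bases after the transcription start for 38 of the 46 genes. The motifs searched on both strands were TTTCCCGC or TTTCGCGC or TTTGCCGC or TTTGGCGC, and matches are in capitals. Orc1 lies at chr4:108579204-108579503 (plus strand), Mcm7 at chr5:138171834-138172133 (minus strand), Cdt1 at chr8:122567765-122568064 (plus strand) and Tk1 at chr11:117825965-117826264 (minus strand).
Orc1: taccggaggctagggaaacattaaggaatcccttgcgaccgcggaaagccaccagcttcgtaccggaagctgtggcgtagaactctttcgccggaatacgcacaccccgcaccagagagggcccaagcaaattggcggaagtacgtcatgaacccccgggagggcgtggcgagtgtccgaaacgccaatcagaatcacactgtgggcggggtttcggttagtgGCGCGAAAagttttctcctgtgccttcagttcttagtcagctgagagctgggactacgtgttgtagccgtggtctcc
Mcm7: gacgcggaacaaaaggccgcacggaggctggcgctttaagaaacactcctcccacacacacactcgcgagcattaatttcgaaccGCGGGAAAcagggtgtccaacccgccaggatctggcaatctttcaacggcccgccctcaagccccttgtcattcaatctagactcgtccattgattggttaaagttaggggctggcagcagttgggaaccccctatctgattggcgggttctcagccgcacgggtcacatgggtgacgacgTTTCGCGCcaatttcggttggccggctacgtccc
Cdt1: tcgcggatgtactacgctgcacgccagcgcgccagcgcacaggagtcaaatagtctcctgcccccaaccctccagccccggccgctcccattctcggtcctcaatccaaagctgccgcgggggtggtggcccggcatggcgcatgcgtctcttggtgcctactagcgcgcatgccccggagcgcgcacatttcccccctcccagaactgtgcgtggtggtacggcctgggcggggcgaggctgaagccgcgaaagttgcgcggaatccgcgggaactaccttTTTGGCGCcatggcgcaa
Tk1: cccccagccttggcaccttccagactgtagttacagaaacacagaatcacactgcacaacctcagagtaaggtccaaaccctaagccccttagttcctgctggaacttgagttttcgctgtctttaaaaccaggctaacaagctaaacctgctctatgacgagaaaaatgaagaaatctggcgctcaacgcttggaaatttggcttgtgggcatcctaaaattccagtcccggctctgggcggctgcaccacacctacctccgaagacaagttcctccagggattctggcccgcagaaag
The Mcm7 window holds 2 matches, those of Orc1 and Cdt1 hold 1 each, and that of Tk1 holds 0. A match was found in the windows of 14 of the 38 genes (36.8%), against 2.60% of all 27025 genes with a window. Of the 10 genes that rose in marrow at either time, 9 have a window and 5 of these hold a match (Orc1, Cdc6, Cdt1, Mcm7 and Lig1). Genes with no match in the window searched (Tk1, E2f1, Rpa2 and Chaf1b) rose as well. E2f1 had only 1 window, which may not cover its main promoter, and sequence outside the windows was not searched. The match is a description of the letters in the window and says nothing of binding.

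After 1 day of baclofen, the genes that rose in marrow were Chaf1b, Tk1 and Pole. Chaf1b, a subunit of the chromatin assembly factor that places histones on new DNA, had 9.02, 8.89, 8.86 and 9.0 log2 units in baclofen marrows and 8.53, 8.60, 8.67 and 8.76 in vehicle marrows. Its baclofen values all lay above its vehicle values, and it rose by 0.30 ± 0.09 (log2, SE; limma adjusted p = 0.0379). Tk1, the thymidine kinase of dividing cells, had 11.08, 10.96, 10.84 and 11.07 in baclofen marrows and 10.61, 10.77, 10.69 and 10.71 in vehicle marrows. These groups did not overlap either, and the rise was 0.29 ± 0.09 (limma adjusted p = 0.0464). Pole, the catalytic subunit of polymerase epsilon, had 9.35, 9.33, 9.26 and 9.44 in baclofen marrows and 9.0, 9.11, 9.15 and 9.08 in vehicle marrows. It rose by 0.26 ± 0.08 (limma adjusted p = 0.0477), again without overlap.

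Among all genes tested in marrow at 1 day 4.25% fell, and 3 rises of 45 genes is close to the share of all genes that rose. The baclofen arrays lay wholly above the vehicle arrays for 5 of the 45 genes (Orc1 and Cdc6 besides the 3 named), against 5.57% of all genes. The difference was above 0 for 40 of the 45 genes, against 50.3% of all genes, and its median was 0.12 against 0.00 for all genes. Ccne2, cyclin E2, ran the other way: it had 9.80, 9.73, 9.74 and 9.84 log2 units in baclofen marrows and 10.09, 10.03, 10.10 and 9.84 in vehicle marrows, a difference of -0.24 ± 0.11 (limma adjusted p = 0.215). Before rounding all its baclofen values lay below its vehicle values, which held for 1 of the 45 genes, against 7.69% of all genes. The 3 calls are near the threshold. The count was 0 without baclofen replicate 1, 2 or 4 or vehicle replicate 2 or 3, 1 without vehicle replicate 1 or 4, and 5 when baclofen replicate 3, with its high muscle genes, was left out.

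After 5 days the lowest adjusted p-values in marrow were those of Cdt1, Tk1, Lig1 and Pole. Cdt1, the factor that brings the helicase to origins, ranged from 12.04 over a median of 12.24 to 12.41 log2 units in the 8 baclofen marrows, against 11.84, 11.97, 11.93 and 11.88 in vehicle marrows. The groups did not overlap, and Cdt1 rose by 0.32 ± 0.07 (limma adjusted p = 0.00906). Tk1 ranged from 10.71 over 11.04 to 11.12 in baclofen marrows, against 10.60, 10.59, 10.62 and 10.62 in vehicle marrows. Its vehicle arrays were nearly equal and all below the baclofen arrays, and it rose by 0.35 ± 0.08 (limma adjusted p = 0.00983). Lig1, the ligase that joins lagging strand pieces, ranged from 11.36 over 11.60 to 11.74 in baclofen marrows, against 11.34, 11.34, 11.30 and 11.29 in vehicle marrows. It rose by 0.25 ± 0.06 (limma adjusted p = 0.0234), with no overlap. Pole ranged from 9.11 over 9.39 to 9.51 in baclofen marrows, against 9.03, 9.23, 9.06 and 9.06 in vehicle marrows. These ranges overlapped through vehicle replicate 2, and Pole rose by 0.25 ± 0.07 (limma adjusted p = 0.0283).

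The other genes that rose at 5 days were E2f1 by 0.24 (limma adjusted p = 0.0314), Mcm7 by 0.22 (adjusted p = 0.0330), Orc1 by 0.33 (adjusted p = 0.0394), Cdc6 by 0.29 (adjusted p = 0.0454) and Rpa2 by 0.22 (adjusted p = 0.0467). With these, 4 of the 10 licensing genes rose, 2 of the 5 strand protection and joining genes, and 1 each of the 8 polymerase and primase genes, the 5 nucleotide supply genes and the 3 S phase entry genes. Tyms, thymidylate synthase, differed by 0.26 (adjusted p = 0.0524). Mcm2, Mcm3, Mcm4, Mcm5 and Mcm6, the partners of Mcm7 in the helicase, did not pass. Of all genes tested 3.93% fell. The difference was above 0 for 43 of the 45 replication genes, against 49.3% of all genes, with a median of 0.14 against 0.00. The groups did not overlap for 4 of them (Cdt1, Tk1, Lig1 and E2f1), against 3.53% of all genes.

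Within the baclofen marrows of 5 days, replicates 4 and 8 were the lowest for 37 of the 45 genes, and for 8 of the 9 that rose. The calls of Cdt1 and Tk1 held whichever of the 12 arrays of that day was left out, with adjusted p of at most 0.0425 and 0.0388. The count of 9 became 2 without vehicle replicate 1 or 3, 3 without baclofen replicate 2, 5 or 6, 4 without baclofen replicate 1 or vehicle replicate 4, 5 without baclofen replicate 7, and 16 without baclofen replicate 8. Lig1 lost its call without vehicle replicate 1 or 3, and Pole without vehicle replicate 1, 3 or 4 or baclofen replicate 1, 2, 5 or 6. The change of the baclofen difference from 1 to 5 days passed limma's test for 0 of the 45 genes (0% of all genes), and so did vehicle marrows of 5 days against those of 1 day (0% of all genes). At unadjusted p under 0.05 these counts were 0 of 45 against 5.12% of all genes for the change, and 3 of 45 against 4.67% for the vehicles. The largest change among the replication genes was that of Ccne2, by 0.24 ± 0.15 (limma adjusted p = 0.942), and Rpa3 differed most between the vehicles, by 0.23 ± 0.10 (limma adjusted p = 0.906).

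**Figure D2:**
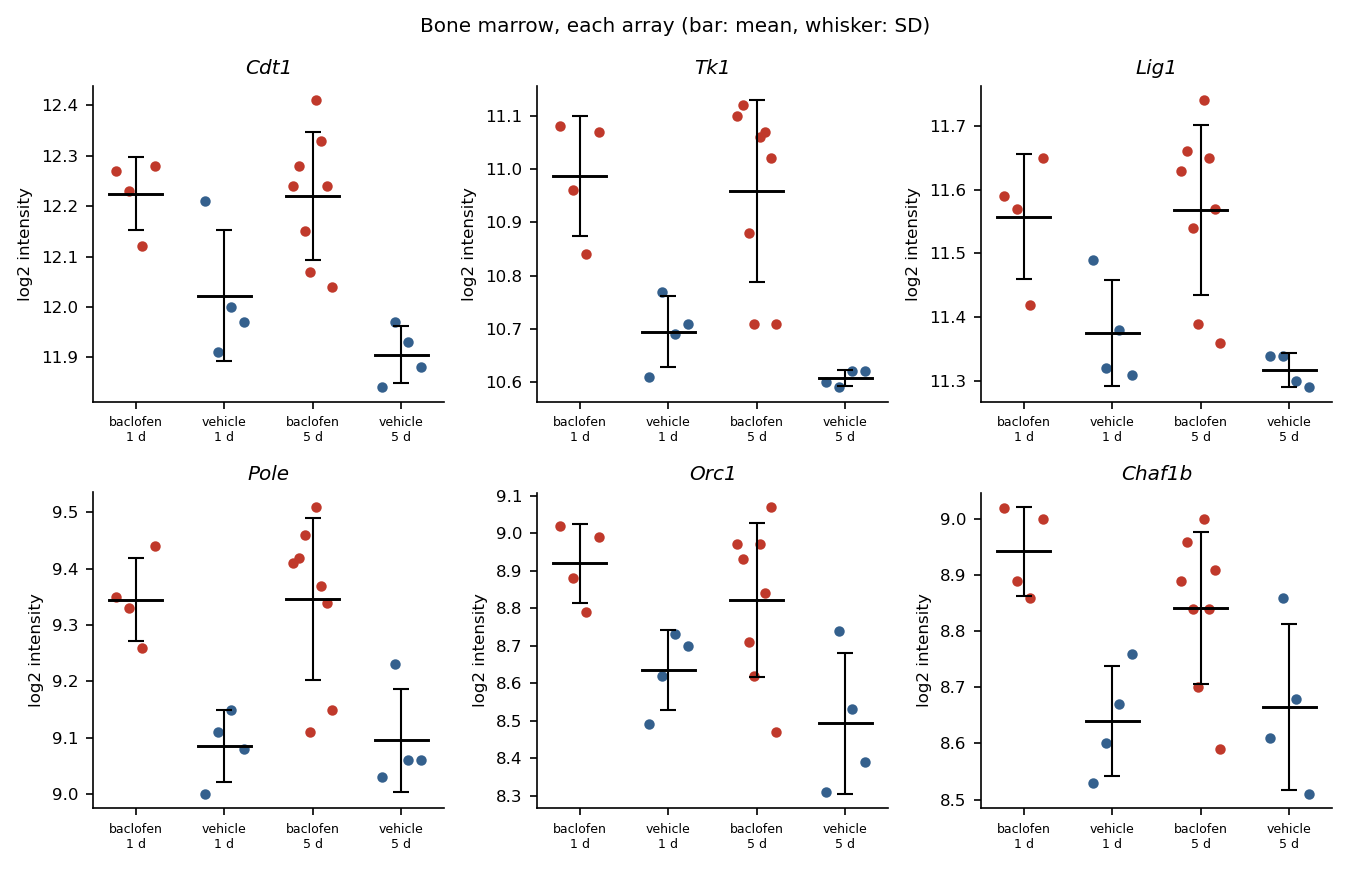
Log2 intensity (y axis) of 6 genes in each bone marrow array by treatment and day (x axis); points are arrays, bars means and whiskers SD. For Cdt1, Tk1 and Lig1 every baclofen array of 5 days lies above the vehicle arrays, and the lowest baclofen points there are replicates 4 and 8.

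Other gene lists give the setting in marrow. Of 16 tested markers of red cell precursors, 13 rose after 5 days and 0 after 1 day, with median differences of 0.40 and 0.14. Epor, the erythropoietin receptor, rose by 0.53 ± 0.10 (limma adjusted p = 0.00519), and the mean of the list ran from 11.75 to 12.06 log2 units in baclofen marrows of 5 days and from 11.27 to 11.72 in vehicle marrows. Of 40 other replication factors 4 rose and 4 fell after 1 day, and 5 rose and 1 fell after 5 days. Clspn, the checkpoint mediator Claspin, rose by 0.38 ± 0.09 after 1 day (limma adjusted p = 0.0134) and by 0.36 ± 0.08 after 5 days (adjusted p = 0.00948), whereas Cdca7 fell by 0.36 ± 0.07 after 1 day (adjusted p = 0.00539) and by 0.36 ± 0.06 after 5 days (adjusted p = 0.00303). Of 31 genes that control S phase entry, 0 rose and 2 fell after 1 day, Cdc25a by 0.30 ± 0.08 (limma adjusted p = 0.0364) and Rbl1 by 0.25 ± 0.07 (adjusted p = 0.0390). After 5 days 6 of them rose and 1 fell, with Tfdp2, a partner of E2F factors, up by 0.51 ± 0.10 (adjusted p = 0.00592) and E2f2 by 0.42 ± 0.09 (adjusted p = 0.0105). Of 29 mitosis genes 1 rose after 5 days and 1 fell after 1 day, with median differences of 0.09 and 0.04.

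Markers of other marrow cells moved in the same arrays. After 5 days all 11 granulocyte precursor markers were below 0, with a median of -0.25, and Prtn3, a protease of their granules, fell by 0.46 ± 0.12 (limma adjusted p = 0.0268). Of 9 mature neutrophil markers 8 were below 0, with a median of -0.13, and Il1b fell by 0.99 ± 0.26 (adjusted p = 0.0236). All 10 macrophage markers were above 0, with a median of 0.22, and Vcam1 rose by 0.43 ± 0.09 (adjusted p = 0.00888) and Cd5l by 0.63 ± 0.15 (adjusted p = 0.0140). All 11 B cell precursor markers were above 0, with a median of 0.20, and 0 passed. After 1 day 0 genes of these 4 lists passed, with medians of -0.13 for granulocyte precursors, -0.15 for neutrophils, 0.28 for macrophages and 0.28 for B cell precursors. Of 6 T cell and 4 mature B cell markers 0 passed at either time. The part of any cell type in the rise of the replication genes was not tested.

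In the spleen every replication gene tested was lower on average after baclofen, and none was called. The median difference over 44 genes was -0.43 log2 units after 1 day, against -0.03 for all genes, and -0.40 after 5 days, against 0.00. All 44 were below 0 at both times, against 54.6% of all genes at 1 day and 50.7% at 5 days. The 44 genes come from the same arrays and are not separate observations.

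The largest differences were those of cyclin E2 and Cdc6. Ccne2 had 7.11, 7.96, 8.03 and 7.49 log2 units in baclofen spleens of 1 day and 9.64, 9.09, 7.27 and 8.84 in vehicle spleens. Vehicle replicate 3 lay among the baclofen values, and the difference was -1.06 ± 0.52 (95% interval -2.14 to 0.02; limma adjusted p = 0.162). Cdc6 had 8.57, 9.61, 9.03 and 8.77 in baclofen spleens and 10.87, 10.14, 8.28 and 10.13 in vehicle spleens, a difference of -0.86 ± 0.52 (interval -1.95 to 0.23; adjusted p = 0.263). Vehicle replicate 3 was the lowest of these 8 arrays. After 5 days Ccne2 ranged from 6.23 over 6.97 to 8.61 in baclofen spleens, against 7.97, 9.46, 7.83 and 8.39 in vehicle spleens, a difference of -1.20 ± 0.45 (interval -2.14 to -0.27; adjusted p = 0.111). Cdc6 ranged from 7.67 over 8.45 to 10.08 in baclofen spleens, against 9.14, 10.44, 8.87 and 9.22 in vehicle spleens, a difference of -0.84 ± 0.45 (interval -1.79 to 0.10; adjusted p = 0.239). For both genes the highest baclofen array, replicate 7, reached into the vehicle range.

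The lowest adjusted p of a replication gene in spleen was 0.0641 at 1 day, for the polymerase epsilon subunit Pole2 (-0.71), and 0.0958 at 5 days, for the single-strand binding subunit Rpa3 (-0.47). Among all genes tested, 7.64% rose and 7.91% fell at 1 day, and 3.05% rose and 1.38% fell at 5 days. At unadjusted p under 0.05, 6 of 44 replication genes were lower at 1 day, against 17.7% of all genes, and 10 of 44 at 5 days, against 13.1%. Baclofen and vehicle arrays overlapped for every replication gene tested, whereas 8.9% of all genes at 1 day and 1.61% at 5 days lay wholly lower with baclofen. By role the lowest median was that of the 3 S phase entry genes, -0.56 at both times, and the differences nearest 0 were those of Rfc2 (-0.03 at 1 day) and Rfc1 (-0.04 at 5 days), subunits of the clamp loader.

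Single arrays decide these counts, and the share of all genes called with an array left out is not given here. Vehicle spleen 3 of 1 day was the lowest of its group, and vehicle spleen 1 the highest, for all 44 genes. Without vehicle replicate 3, 25 of 44 genes fell at 1 day, with a median of -0.68, and Ccne2 (-1.54, limma adjusted p = 0.0264) and Cdc6 (-1.39, adjusted p = 0.0385) were among them. Baclofen spleen 7 of 5 days was the highest of its group for all 44 genes, and without it 2 genes fell at 5 days (Ccne2 and Rpa3). Without the 4 libraries that hold transcripts of another tissue, 0 fell at either time, and the median at 5 days was -0.54. The change of the baclofen difference from 1 to 5 days passed for 0 genes (0% of all genes), as did vehicle of 5 days against vehicle of 1 day (0%). At unadjusted p under 0.05 both counts were 0 of 44, against 7.86% and 3.46% of all genes. Rrm2 had the largest change of effect, -0.37 ± 0.57 (adjusted p = 0.937), and Cdc6 the largest vehicle difference, -0.44 ± 0.52 (adjusted p = 0.962).

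Red cell precursor and mitosis genes had nearly the same extreme spleens as the replication genes. The mean of 17 red cell precursor genes was 10.44 ± 0.23 log2 units in baclofen spleens of 1 day and 10.96 ± 0.80 in vehicle spleens (SD, n = 4 each), and 9.80 ± 0.73 in baclofen spleens of 5 days (n = 8) and 10.56 ± 0.90 in vehicle spleens (n = 4). The mean of 29 mitosis genes was 8.89 ± 0.27 in baclofen spleens and 9.47 ± 0.78 in vehicle spleens at 1 day, and 8.47 ± 0.51 in baclofen spleens and 9.32 ± 0.52 in vehicle spleens at 5 days. The array highest and the array lowest for the replication genes in each of the 4 groups were also the extremes of the red cell precursor list in 7 of 8 cases and of the mitosis list in 8 of 8. All 16 tested red cell markers and all 29 mitosis genes were below 0 at both times, and 0 of them passed. Markers of granulocyte precursors (4 of 11 fell) and of mature neutrophils (4 of 9 fell) passed at 1 day and not at 5 days. Of 39 other replication factors 5 fell at 1 day, and 2 fell and 1 rose at 5 days, with Top1, the topoisomerase that relieves twist ahead of the fork, at -0.46 ± 0.10 (limma adjusted p = 0.00658) and -0.47 ± 0.09 (adjusted p = 0.00699).

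Lymphocyte markers lay mostly above 0 in these spleens. All 8 T cell markers were above 0 at both times, with medians of 0.40 at 1 day and 0.17 at 5 days, and Il7r, the interleukin 7 receptor, rose by 1.06 ± 0.19 (limma adjusted p = 0.00153) and by 1.07 ± 0.16 (adjusted p = 0.00123). Of 7 tested genes of the B cell precursor list all were above 0 at 1 day, with a median of 0.36, and 3 rose. Among them were Lef1 by 0.65 ± 0.19 (limma adjusted p = 0.0297) and Ebf1 by 0.59 ± 0.19 (adjusted p = 0.0413). Which spleen cells express the genes of this list was not tested. At 5 days 5 of the 7 were above 0 and 0 passed. Mature B cell markers were above 0 for 5 of 5 at 1 day and 3 of 5 at 5 days, and macrophage markers were below 0 for 9 of 11 at 1 day and 5 of 11 at 5 days, with 0 called. Of 30 S phase entry control genes 2 fell at 1 day, E2f6 by 0.52 ± 0.11 (limma adjusted p = 0.00423) and Rbl1 by 0.55 ± 0.16 (adjusted p = 0.0290), and 0 passed at 5 days. The part of any cell type in the spleen values was not tested.

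**Figure D3:**
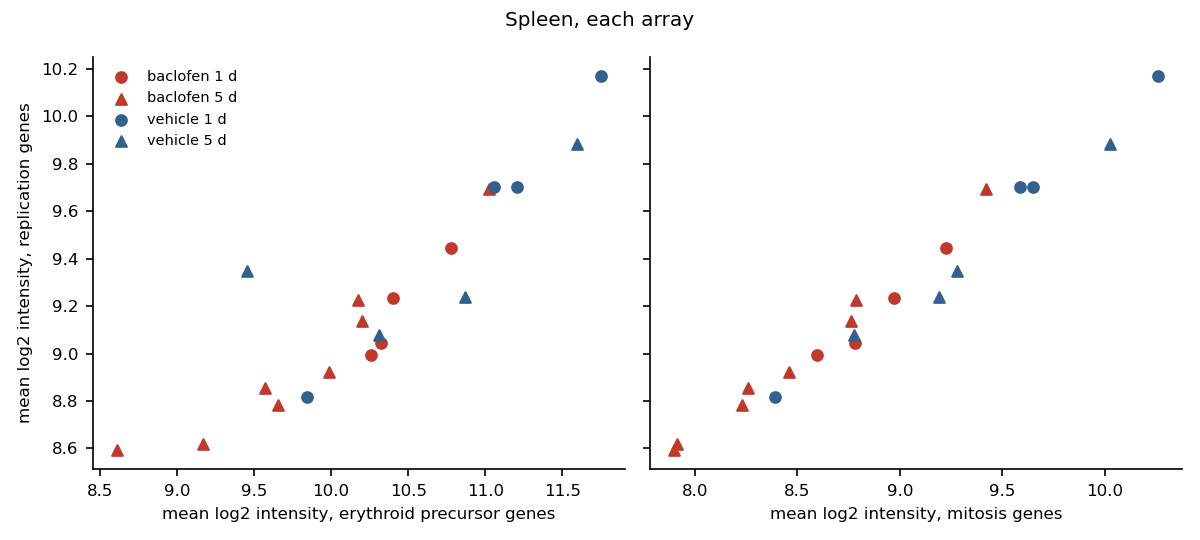
Mean log2 intensity of the replication genes in each spleen array (y axis) against the mean of red cell precursor genes (left) and of mitosis genes (right); colour gives treatment and shape the day. Baclofen array 7 of 5 days (9.69) lies within the range of the vehicle arrays of that day (9.08 to 9.88). Vehicle array 3 of 1 day (8.82) lies below all baclofen arrays of that day (lowest 8.99). Vehicle array 1 of 5 days (9.35 at a red cell mean of 9.46) lies above its neighbours in the left panel.

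In liver few replication genes changed, and after 1 day 0 of 33 tested genes passed. Rrm2, the small subunit of ribonucleotide reductase, had 6.79, 6.82, 7.03 and 7.04 log2 units in baclofen livers and 5.47, 5.56 and 6.58 in vehicle livers. The groups did not overlap, and the difference was 1.05 ± 0.29 (interval 0.44 to 1.66; limma adjusted p = 0.0604). Cdt1 had 6.39, 6.48, 6.75 and 5.98 in baclofen livers and 6.05, 5.49 and 6.31 in vehicle livers, an overlapping difference of 0.45 ± 0.22 (interval -0.01 to 0.90; adjusted p = 0.417). Of all genes, 1.58% rose and 1.09% fell, and at unadjusted p under 0.05, 1 of 33 replication genes was higher, against 6.27% of all genes. Baclofen livers lay wholly above vehicle livers for 1 of 33 genes (Rrm2), against 6.2% of all genes. They lay wholly below for 1 of 33 (Pola2), against 6.34%. With the treatments of the source field, the difference was -0.28 for Rrm2 and -0.25 for Cdt1, so both directions rest on the titles. Without vehicle replicate 3 Rrm2 rose by 1.41 (adjusted p = 0.0105).

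After 5 days Pcna, Gins4 and Rrm2 rose in liver and Rfc2 fell, 4 of 33 genes. Pcna ranged from 9.59 over 9.76 to 10.05 log2 units in baclofen livers, against 9.48, 9.54, 9.43 and 9.52 in vehicle livers. All baclofen values were higher, and Pcna rose by 0.28 ± 0.07 (limma adjusted p = 0.0146). Gins4, a subunit of the GINS complex of the active helicase, ranged from 7.60 over 7.77 to 7.95 in baclofen livers, against 7.46, 7.47, 7.33 and 7.69 in vehicle livers. The ranges overlapped through vehicle replicate 4, and Gins4 rose by 0.29 ± 0.07 (adjusted p = 0.0188). Rrm2 ranged from 6.02 over 6.57 to 6.93 in baclofen livers, against 5.31, 6.51, 5.71 and 5.07 in vehicle livers. Vehicle replicate 2 lay among the baclofen values, and Rrm2 rose by 0.88 ± 0.23 (adjusted p = 0.0213), or 1.84 fold.

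Rfc2, a clamp loader subunit, ranged from 7.20 over 7.37 to 7.45 log2 units in baclofen livers, against 7.59, 7.60, 7.61 and 7.49 in vehicle livers. All baclofen values were lower, and it fell by 0.20 ± 0.05 (limma adjusted p = 0.0203). Baclofen livers lay wholly above vehicle livers for 1 of 33 genes (Pcna), against 2.59% of all genes. They lay wholly below for 1 of 33 (Rfc2), against 2.89%. Of all genes 4.86% rose and 5.75% fell, so 3 rises and 1 fall of 33 stand near the background, and the median difference was 0.02 against -0.02 for all genes. Tk1 differed by 0.79 (adjusted p = 0.0713), Rpa3 by 0.37 (adjusted p = 0.0593) and Mcm7 by 0.20 (adjusted p = 0.0680). The 3 probe sets of Rrm2 differed by 0.88, 0.69 and 0.36, and those of Rfc2 by -0.20, -0.32 and 0.00. Without vehicle replicate 3 no gene passed, with Rrm2 at 0.90 (adjusted p = 0.0568) and Pcna at 0.26 (adjusted p = 0.0609). Gins4 and Rfc2 also lost their calls without vehicle replicate 2, and Rrm2 without vehicle replicate 1 or 4.

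**Figure D4:**
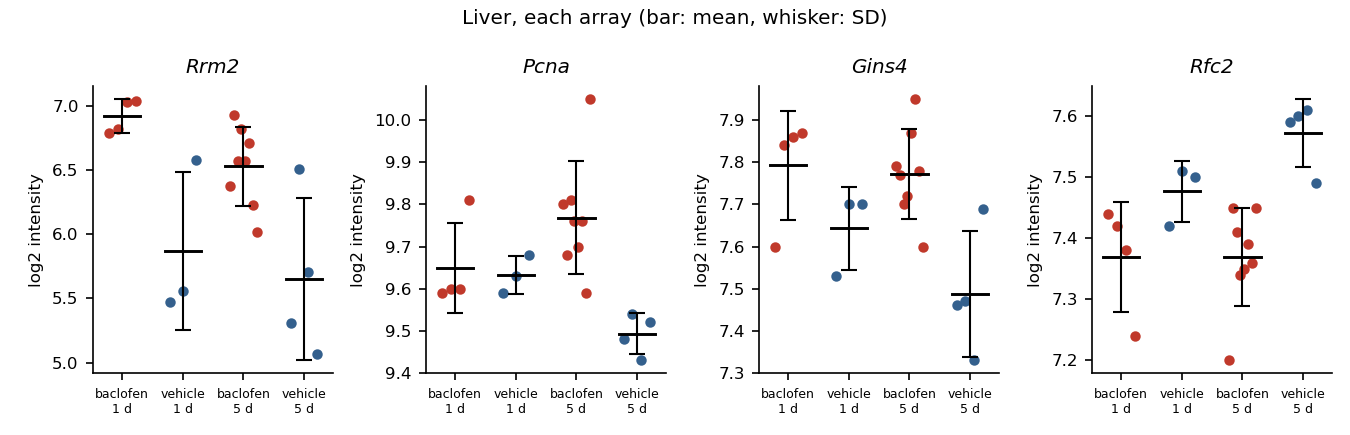
Log2 intensity (y axis) of the 4 genes that passed in liver at 5 days, in each liver array by treatment and day (x axis); points are arrays, bars means and whiskers SD. Baclofen and vehicle arrays of 5 days are apart for Pcna (9.59 to 10.05 with baclofen) and Rfc2 (7.20 to 7.45 with baclofen) and overlap for Rrm2 and Gins4.

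The change of the baclofen difference from 1 to 5 days in liver passed for 0 of 33 genes (0.0183% of all genes), and 0 differed between the vehicle groups (0%). At unadjusted p under 0.05 the counts were 1 of 33 against 9.62% of all genes, and 2 of 33 against 7.14%. Tk1 had both the largest change, 0.90 ± 0.44 (limma adjusted p = 0.523), and the largest vehicle difference, -0.35 ± 0.34 (adjusted p = 0.896). Of 32 other replication factors 2 rose at 5 days, Dctpp1 by 0.29 ± 0.07 (limma adjusted p = 0.0125) and Gmnn, the inhibitor of Cdt1, by 0.57 ± 0.16 (adjusted p = 0.0309). Of 9 tested mitosis genes 0 passed at either time. Of 23 tested genes of S phase entry control 1 rose at 1 day, Cdkn1a, the cyclin-dependent kinase inhibitor p21, by 2.60 ± 0.63 with the titles followed (limma adjusted p = 0.0302). At 5 days Ccnd1, cyclin D1, fell by 0.99 ± 0.18 (adjusted p = 0.00217) and Wee1, a kinase that restrains entry into mitosis, rose by 0.80 ± 0.20 (adjusted p = 0.0180). Of 11 macrophage markers 0 passed at 1 day and 3 fell at 5 days, when all 11 were below 0, and Mpeg1 fell by 0.77 ± 0.19 (limma adjusted p = 0.0145). Of 12 hepatocyte genes 1 rose at 1 day, and 2 rose and 1 fell at 5 days. Their part in the liver values was not tested.

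The difference of the baclofen effect between tissues was tested directly in 1 fit of all 12 groups, which pools the spread over tissues. At 1 day the median SE of the replication genes was 0.08 in marrow, 0.25 in spleen and 0.12 in liver when each tissue was fitted alone. In the pooled fit it was 0.25 for marrow minus spleen, and 0.26 for both marrow minus liver and spleen minus liver. Counts for marrow minus liver therefore carry the spread of the spleens. The median SE of marrow minus spleen (0.252) was below that of the spleen effect fitted alone (0.255). Pooling thus understates the spread of the spleens, and the p-values of differences that involve spleen may be too small. The marrow effect minus the spleen effect was above 0 for all 44 genes at both times, with medians of 0.56 at 1 day and 0.51 at 5 days, against 0.02 and 0.00 for all genes. After adjustment 1 of 44 passed at 1 day, Gins4 with 0.65 ± 0.18 (limma adjusted p = 0.0471), against 0.901% of all genes. At 5 days 0 of 44 passed, against 3.05% of all genes, and Ccne2 had the largest difference, 1.20 ± 0.40 (adjusted p = 0.0651). At unadjusted p under 0.05, 24 of 44 passed at 1 day, against 13% of all genes, and 35 of 44 at 5 days, against 14%. These genes share the same arrays and are not independent.

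The count depends on the same spleens as before, and again no share of all genes is given for left-out arrays. Without vehicle spleen 3 of 1 day, 34 of 44 genes had a higher effect in marrow at 1 day. At 5 days 28 of 44 did without baclofen spleen 7, 11 without vehicle spleen 3, and 15 without the 4 libraries that hold transcripts of another tissue. There were 2 without marrow vehicle 2, spleen vehicle 1 or 4 or spleen baclofen 3, and 1 without marrow baclofen 4 or 8 or spleen baclofen 4. Gins4 lost its call at 1 day without 12 of the 16 arrays left out in turn, all but marrow vehicle 2, marrow baclofen 3, spleen vehicle 3 and spleen baclofen 2.

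Spleen and liver also differed. The spleen effect minus the liver effect was lower for 2 of 31 genes at 1 day, against 3.52% of all genes, and for 5 of 31 at 5 days, against 5.94%. At 1 day these were Rrm2, -1.51 ± 0.45 (limma adjusted p = 0.0349), and Gins4, -0.60 ± 0.19 (adjusted p = 0.0440). With the source field of the livers they were -0.18 and -0.35 and did not pass. At 5 days they were Rrm2, -1.70 ± 0.38 (adjusted p = 0.00207), Rpa3, -0.83 ± 0.19 (adjusted p = 0.00233), Gins4 (-0.60), Pcna (-0.73) and Tk1 (-1.22). Rrm2 thus had a positive difference in liver (0.88) and a negative one in spleen (-0.82) after 5 days. At 1 day the count was 18 without vehicle spleen 3, 1 without baclofen liver 2 or vehicle liver 3, and 0 without vehicle spleen 1, 2 or 4, baclofen spleen 1 or 4, vehicle liver 1 or 2, or baclofen liver 3 or 4. At 5 days it was 13 without baclofen spleen 7, 8 without vehicle spleen 3 and 2 without vehicle spleen 2.

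Between marrow and liver 1 of 31 genes passed at 5 days, Rfc2 with 0.26 ± 0.08 (limma adjusted p = 0.0408), against 3.86% of all genes. At 1 day 0 of 31 passed, against 2.17% of all genes in either direction, and at unadjusted p under 0.05 1 did, against 12.6%. That gene was Rrm2, with -0.95 ± 0.45 (adjusted p = 0.362), and 0.37 with the source field of the livers. The Rfc2 call was lost without 13 of the 24 arrays left out in turn: any vehicle marrow, baclofen marrow 2, 5, 6 or 7, vehicle liver 1, 2 or 3, and baclofen liver 1 or 4.

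**Figure D5:**
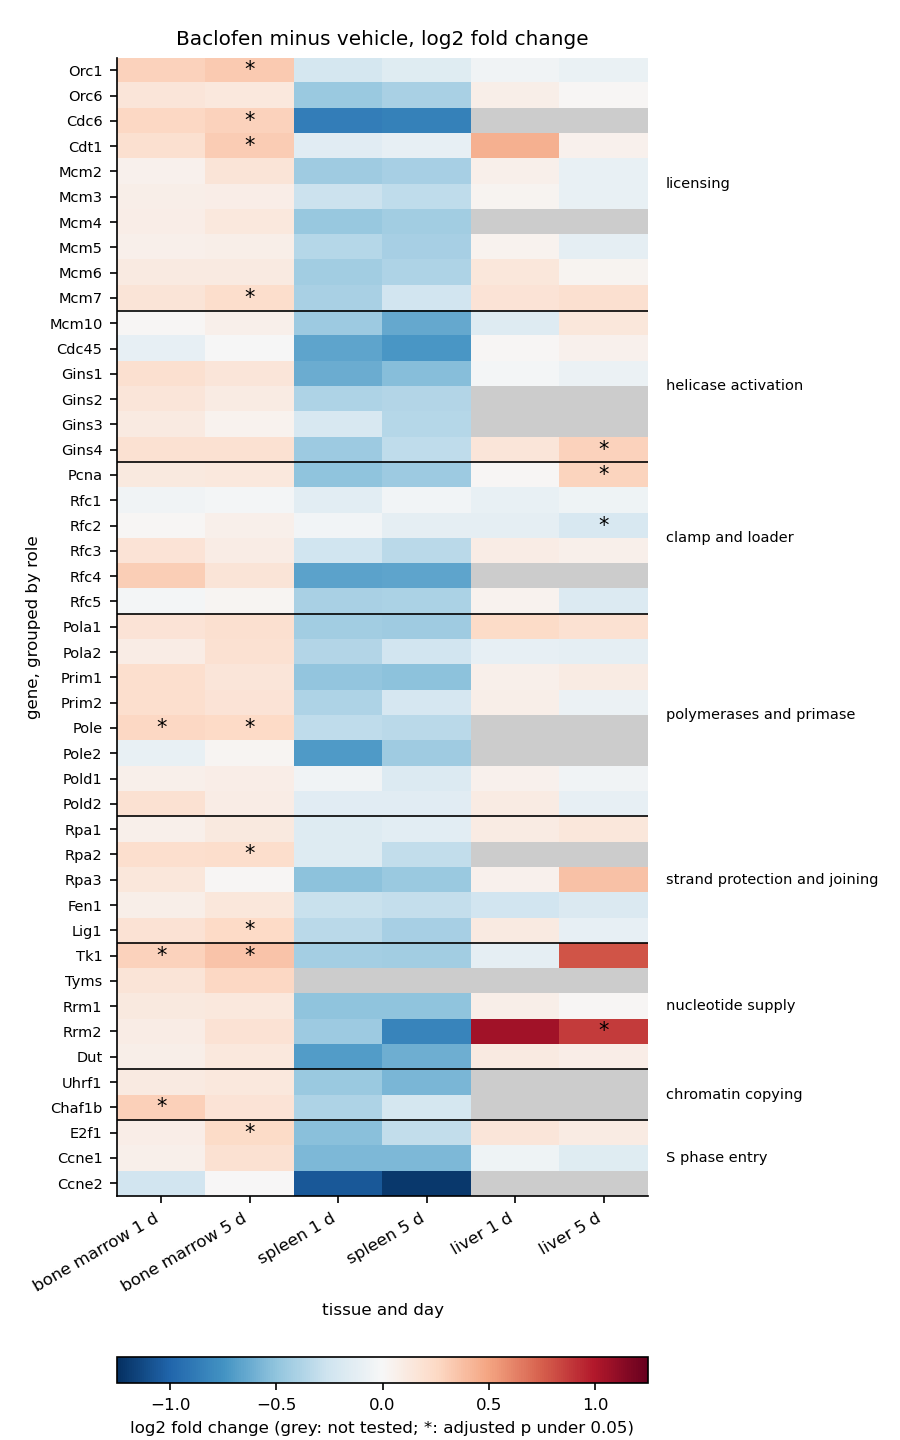
Log2 fold change of baclofen over vehicle (colour) for each replication gene (rows, by role) in each tissue and day (columns); asterisks mark adjusted p under 0.05 and grey cells were not tested. Marrow columns are mostly above 0, with 3 and 9 asterisks, spleen columns are all below 0 with none, and liver columns are mixed with 4 at 5 days.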

How the data were processed

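The 59 arrays hold total RNA, isolated with a bone marrow kit from marrow and with columns from liver and spleen, per the labels' protocols. The deposited values are intensity on a linear scale, made by the authors with RMA, per the submitters' processing notes, which also name limma. The number of arrays limits the precision, and no batch is labelled.

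Values were taken to log2 with no further normalization. Probe sets with 1 symbol stand for 18193 genes. A gene was represented by its brightest probe set in a tissue, and 10916 genes at or above the 40th percentile of means were tested with limma 3.58.1 in R 4.3.3, fitted to all 4 groups of a tissue. The lowest intensity kept was 83.6 in bone marrow, 79.5 in spleen and 42.9 in liver. Tissue differences came from 1 fit of all 12 groups. A gene was called at a Benjamini-Hochberg adjusted p under 0.05 over all genes tested. The script was tested on simulated data. Figures used Python 3.11.15 and matplotlib 3.10.9.

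The members and lists were chosen with earlier results of these data known. Full values are given for up to 4 members called in each direction of a baclofen comparison, or the 2 with the largest differences where none was called. In other comparisons up to 2 called members, or the 1 with the largest difference, have full values. Other members are named with differences only, and up to 2 genes of each other list by smallest adjusted p. Where arrays were left out, the probe set of each gene was kept. Alternatives were the filter, probe set, normalization, variance model, weights, samples fitted, replicate block, source labels and left-out arrays. All probe sets tested apart was added after seeing the data.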

Additional observations from a re-analysis of the deposited data

Results flagged for a closer look

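Groups of 4 to 8 arrays were tested for genes with full values and for the mean of the replication genes. In 3 of 43 of them 1 array lay far from the others, and chance gives about 1 in 20. Pole was 9.23 log2 units in vehicle marrow 2 of 5 days, against 9.03 to 9.06 in the other vehicle marrows. Rfc2 was 7.20 in baclofen liver 1 of 5 days, against 7.34 to 7.45 in the other baclofen livers. Rfc2 was 7.49 in vehicle liver 4 of 5 days, against 7.59 to 7.61 in the other vehicle livers.

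The baclofen effect differed between tissues by limma's test of the difference for several genes. The count was 1 of 44 for marrow minus spleen at 1 day, against 0.901% of all genes, where Gins4 differed by 0.65 log2 units. It was 1 of 31 for marrow minus liver at 5 days, against 3.86%, where Rfc2 differed by 0.26. It was 2 of 31 for spleen minus liver at 1 day, against 3.52%, where Rrm2 differed by -1.51 and Gins4 by -0.60. It was 5 of 31 for spleen minus liver at 5 days, against 5.94%, where Rrm2 differed by -1.70 and Rpa3 by -0.83. The counts with 1 array left out are given below.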

How the results depend on the processing

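Of 713 single-gene values under alternatives, 578 kept their direction and side of the threshold, 116 lost a call, 14 gained one and 5 changed direction, and the causes were not tested. Those 5 were Rrm2 in the change of effect in spleen, 0.036 with array weights and 0.030 without vehicle replicate 3 of 1 day, and, with the source field, Rrm2 (-0.28) and Cdt1 (-0.25) in liver at 1 day and Rrm2 in marrow minus liver at 1 day (0.37). Leaving out 1 array gave 0 to 5 called genes in marrow at 1 day, 2 to 16 at 5 days, 0 to 25 in spleen at 1 day, 0 to 2 at 5 days, 0 to 1 in liver at 1 day and 0 to 5 at 5 days. For tissue differences it gave 0 to 34 for marrow minus spleen at 1 day, 0 to 28 at 5 days, 0 to 1 for marrow minus liver at 5 days, and 0 to 18 and 2 to 13 for spleen minus liver at 1 and 5 days. The Rrm2 change of effect in spleen ran from -0.63 to 0.030. The share of all genes called is not given for left-out arrays or other alternatives, here or above. Counts under those settings therefore have no background beside them.

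In marrow at 1 and 5 days the counts of 3 and 9 became 0 and 5 without a filter, 0 and 4 with only the groups compared, 14 and 26 with array weights, and 0 and 3 with all probe sets apart. At 5 days the mean of probe sets gave 5, and at 1 day the omission of the 4 libraries gave 5. In spleen at 1 day the count of 0 became 2 with the mean of probe sets, 23 with array weights and 1 with all probe sets apart. In liver the count of 0 at 1 day became 1 with the mean of probe sets, array weights or all probe sets apart, and the count of 4 at 5 days became 7 with all probe sets apart, 4 genes with a probe set that rose and 3 with one that fell. With the source field the change of effect and the vehicle difference in liver each had 1.

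For marrow minus spleen at 1 day the count of 1 became 0 without a filter, with centring or with only the groups compared, and 29 with array weights. At 5 days the count of 0 became 1 with the 60th percentile or the mean of probe sets, 8 with array weights and 15 without the 4 libraries. For marrow minus liver at 5 days the count of 1 became 0 without a filter, with the mean of probe sets or with centring, and 3 with only the groups compared. For spleen minus liver at 1 day the count of 2 became 1 without a filter, with the 60th percentile or with quantile normalization, 0 with only the groups compared or the source field, and 11 with array weights. At 5 days only the groups compared gave 3 in place of 5.

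The replicate block rests on the replicate numbers, and the labels used here do not say that these pair arrays. Within tissues the correlation of same-numbered arrays ran from -0.46 to 0.27. Between tissues it ran from -0.16 to 0.33 for marrow and spleen, -0.06 to 0.17 for marrow and liver, and -0.06 to 0.18 for spleen and liver. It was over 0.1 in 7 of 20, 4 of 19 and 5 of 19 of these pairs. The fit of all 12 groups took arrays of different tissues as separate samples, and whether some came from 1 mouse was not tested. With the replicate block the counts were 0 and 0 in marrow at 1 and 5 days, 1 in liver at 5 days, 0 for marrow minus spleen at 1 day, 1 for spleen minus liver at 1 day and 6 at 5 days, and Cdt1 and Tk1 in marrow at 5 days had adjusted p of 0.0833 and 0.0823. Dim signal limits liver, where 12 of 45 genes were below the filter.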
